A study of Homo sapiens with 8 samples.

Results

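The replication-dependent histone genes were examined in RNAseq libraries of U251 cells, an established human glioblastoma line, treated with vehicle or with the PRMT5 inhibitor LLY-283. The members are the rows of the deposited expression table whose symbol is H1-, H2AC, H2BC, H3C or H4C followed by a number, which gave 70 genes of the 61906 in the table. They comprised 10 H1, 16 H2A, 17 H2B, 13 H3 and 14 H4 genes. Each of the 4 vehicle libraries came from wild-type cells exposed to DMSO and each of the 4 LLY-283 libraries from wild-type cells exposed to 100 nM of the inhibitor, for 24 h in both cases. PRMT5 is the main enzyme for symmetric dimethylation of arginine in proteins, including histones and the Sm proteins of the splicing machinery. The titles call the 4 libraries of a group biological replicates, all come from a single cell line, and the p-values measure the spread between these libraries.

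Each nucleosome wraps DNA around a core of H2A, H2B, H3 and H4, and an H1 linker histone binds where the DNA enters and leaves it. Most of the genes for these proteins lie in clusters and are transcribed during S phase, when new DNA has to be packaged. Their mRNAs as a rule carry no poly(A) tail and end shortly after a stem-loop that the protein SLBP binds, and the cut after the stem-loop is made by a complex that includes the U7 snRNP. The libraries were made from RNA captured on oligo-dT, so the values below describe the polyadenylated forms of these transcripts together with whatever tail-less RNA was carried through the capture, and not the total histone mRNA.

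The stem-loop itself was located in the genome sequence for each member, as 16 bases with a 6-base stem and a 4-base loop within 200 bases past the stop codon. It was present in 66 of the 70 genes, between 23 and 68 bases after the stop codon. These 66 lie in the histone clusters of chromosomes 6 and 1, and the description as clustered genes holds for them only. H1-7, H1-8 and H1-10 have no stem-loop and lie outside the clusters, on chromosomes 12, 3 and 3. H1-10 encodes a replacement linker histone that is made outside S phase from ordinary polyadenylated mRNA. The stem-loops of the members that changed or that stand for a type are printed from GRCh38 as DNA, 5′ to 3′ on the strand of the gene, with the 16-base stem-loop in capitals and 5 bases on either side:

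H1-2: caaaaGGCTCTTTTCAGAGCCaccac

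H2AC18: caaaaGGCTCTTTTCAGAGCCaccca

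H2BC9: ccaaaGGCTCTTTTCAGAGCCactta

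H2BC21: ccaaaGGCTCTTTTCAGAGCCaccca

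H2BC12: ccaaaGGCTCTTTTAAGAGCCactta

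H3C8: aaaaaGGCTCTTTTAAGAGCCgccta

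H2AC20: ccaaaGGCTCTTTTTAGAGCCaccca

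H4C14: ccaaaGGCCCTTTTTAGGGCCgacca

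The first 4 share 1 sequence, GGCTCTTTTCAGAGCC, which was found in 38 of the 66 genes and in none of the H4 genes. H2BC12 and H3C8 have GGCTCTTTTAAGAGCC, shared by 9 genes. The stem-loops of all 14 H4 genes begin with GGCCC, as in H4C14, and none of the 52 others begins in this way. In all there were 10 distinct stem-loop sequences. Genes that share a stem-loop moved in different directions in the comparison below, since H1-2, H2AC18 and H2BC21 rose and H2BC9 fell.

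Values were TPM, the number of transcripts per 1000000 transcripts of the library after division by length (each library summed to 1000000 or 1000001), so that depth is unknown and no counting error can be given. The correlation between replicates of a group, on the log2 scale across genes, was 0.963 to 0.971. Of 8 markers of a glial or glioblastoma line, 7 averaged at least 1 TPM and OLIG2 was close to 0 in all libraries. Of 10 markers of leukocytes, endothelium, epithelium and oligodendrocytes, 9 averaged under 1 TPM, and the sum of the 10 was 1.59 to 3.76 TPM with vehicle and 1.67 to 2.16 TPM with LLY-283. The mRNA of PRMT5, which the compound inhibits as an enzyme, was 100 ± 5.03 TPM with vehicle and 100.4 ± 4.91 TPM with LLY-283 (SD, n = 4). One vehicle library stood apart for RNAs that have no poly(A) tail, and its values are given with the low-level members below.

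To determine whether LLY-283 changed the polyadenylated histone transcripts, log2(TPM + 0.1) was compared with limma in the 14478 genes that averaged 1 TPM or more, among which were 20 of the 70 members. A gene is called here at a Benjamini-Hochberg adjusted p under 0.05, with the adjustment over all genes tested. The histone genes did not move as a block. H1-2, H2AC18, H2BC12 and H2BC21 rose, 3 genes fell, among them H1-10 and H2BC9, and 13 were not called. The 4 of 20 that rose compare with 8.61% of all genes tested, and the 3 of 20 that fell compare with 17.6%. With a change above 1.5-fold required as well, 0 of 20 rose against 0.394% of all genes, and 1 of 20, H2BC9, fell against 3.48%. The 2 groups of libraries did not overlap for 7 of 20 members, the same 7 that were called, and for 29.2% of all genes. The median log2 fold change was -0.05 for the 20 members and -0.05 for all genes tested. The median of the members moved with single libraries, to -0.14 without vehicle replicate 3 or LLY-283 replicate 2, -0.11 without vehicle replicate 2, -0.08 without LLY-283 replicate 4, -0.03 without LLY-283 replicate 1, -0.0040 without vehicle replicate 1 and 0.0058 without vehicle replicate 4, while that of all genes stayed between -0.05 and -0.04 with any 1 library left out. Of all genes tested 60.2% were lower with LLY-283, and 11 of the 20 members were lower. The median of all genes depends on the scaling, at -0.0021 after median-of-ratios scaling and 0.014 after quantile normalization.

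**Figure D1:**
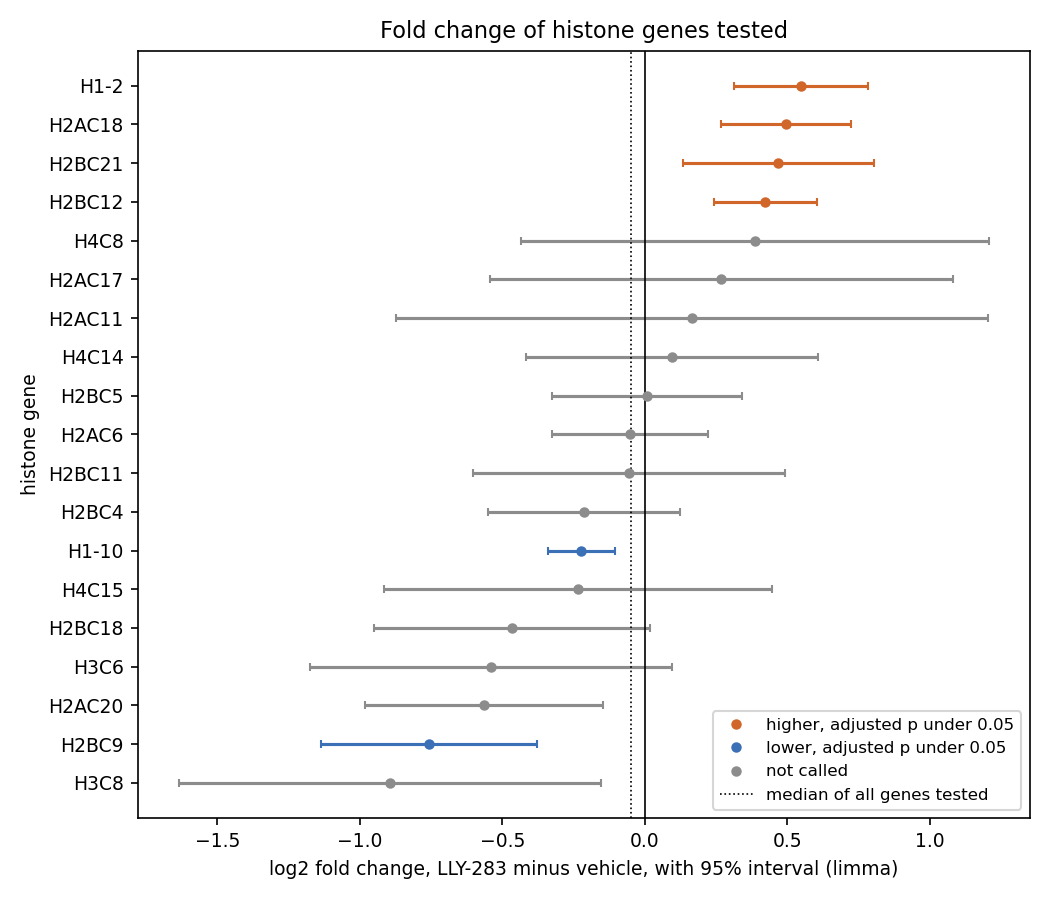
Log2 fold change (LLY-283 minus vehicle, x axis) of 19 of the 20 histone genes tested (y axis, sorted), with the 95% interval from limma over 4 libraries per group; orange marks genes called higher, blue genes called lower and grey genes not called, and the dotted line is the median of all genes tested. The 4 genes called higher lie between 0.42 and 0.55, and H2BC9 at -0.76 is the only called gene beyond a 1.5-fold change.

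Among the linker histones, the replacement gene H1-10 and the S-phase gene H1-2 moved in opposite directions. H1-10 (chromosome 3, 129314771 to 129316286, minus strand, GRCh38) had the highest level of all members, 181.37, 190.35, 182.92 and 194.88 TPM in the 4 vehicle libraries and 154.70, 156.74, 152.55 and 179.48 TPM in the 4 LLY-283 libraries. All vehicle libraries lay above all LLY-283 libraries, and LLY-283 replicate 4 was the closest to vehicle. The fall was 0.22 on the log2 scale (log2 fold change -0.22, SE 0.052, adjusted p = 0.0127, limma). An antisense gene, H1-10-AS1, overlaps the gene on the other strand, and whether the counting used the strand is not given in the sources used here.

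H1-2 (chromosome 6, 26055740 to 26056470, minus strand) encodes H1.2, a linker histone of the chromosome 6 cluster. It was at 9.54, 9.41, 6.82 and 8.44 TPM with vehicle and at 13.38, 12.39, 11.41 and 12.68 TPM with LLY-283. Every LLY-283 library was above every vehicle library, and the mean rose from 8.55 ± 1.25 to 12.5 ± 0.817 TPM (SD, n = 4), a log2 fold change of 0.55 (SE 0.10, 95% interval 0.31 to 0.78, adjusted p = 0.00504, limma). No other gene shares a 50-base window with H1-2 among the annotated transcripts. The remaining 7 H1 genes were under the filter, with H1-6 and H1-8 at 0 in all libraries and the other 5 all lower on average with LLY-283. H1-5, for example, was at 2.33, 0.34, 0.61 and 0.32 TPM with vehicle and at 0.16, 0.12, 0.92 and 0.53 TPM with LLY-283, so that its higher vehicle mean came from replicate 1.

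The H2B genes held both the largest called decrease and 2 of the 4 increases. H2BC9 (chromosome 6, 26251614 to 26252075, plus strand) was at 13.55, 13.82, 11.30 and 14.55 TPM with vehicle and at 8.17, 5.90, 6.93 and 11.03 TPM with LLY-283. The lowest vehicle library was just above the highest LLY-283 library, replicate 4, and the other 3 LLY-283 libraries were well below. The mean fell from 13.3 ± 1.40 to 8.01 ± 2.22 TPM (SD, n = 4), a log2 fold change of -0.76 (SE 0.17, 95% interval -1.14 to -0.38, adjusted p = 0.0105, limma). H2BC9 has 1 annotated transcript, without an intron, that ends 5 bases past the stem-loop, and it shares no 50-base window with another gene.

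H2BC12 (chromosome 6, 27146361 to 27146855, minus strand) was the most abundant of the genes with a stem-loop. It measured 16.52, 13.25, 15.08 and 14.59 TPM with vehicle and 21.46, 17.55, 20.87 and 19.92 TPM with LLY-283. The groups did not overlap, and the mean rose from 14.9 ± 1.35 to 19.95 ± 1.72 TPM (SD, n = 4), a log2 fold change of 0.42 (SE 0.080, adjusted p = 0.00498, limma). Of its 50-base windows, 57.2% also occur in another annotated gene, 47.8% in 1 copy that the annotation lists on another chromosome, so reads could be divided between them.

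H2BC21 (chromosome 1, 149884459 to 149886682, minus strand) was present at a much lower level, 1.27, 1.44, 1.23 and 1.18 TPM with vehicle and 1.88, 1.71, 1.67 and 1.98 TPM with LLY-283. All LLY-283 libraries exceeded all vehicle libraries (log2 fold change 0.47, SE 0.15, adjusted p = 0.0445, limma). The call was lost, at much the same fold change, when any 1 of the 8 libraries was left out, with adjusted p from 0.0534 to 0.104. The other 4 H2B genes tested were not called by limma. H2BC18 had a log2 fold change of -0.47 (adjusted p = 0.144) and H2BC4 of -0.21 (adjusted p = 0.329). Over the alternatives they ran from -0.62 to -0.26 and from -0.29 to -0.04, without a call. H2BC11 and H2BC5 were at -0.06 and 0.01, with 95% intervals from -0.60 to 0.49 and from -0.33 to 0.34.

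**Figure D2:**
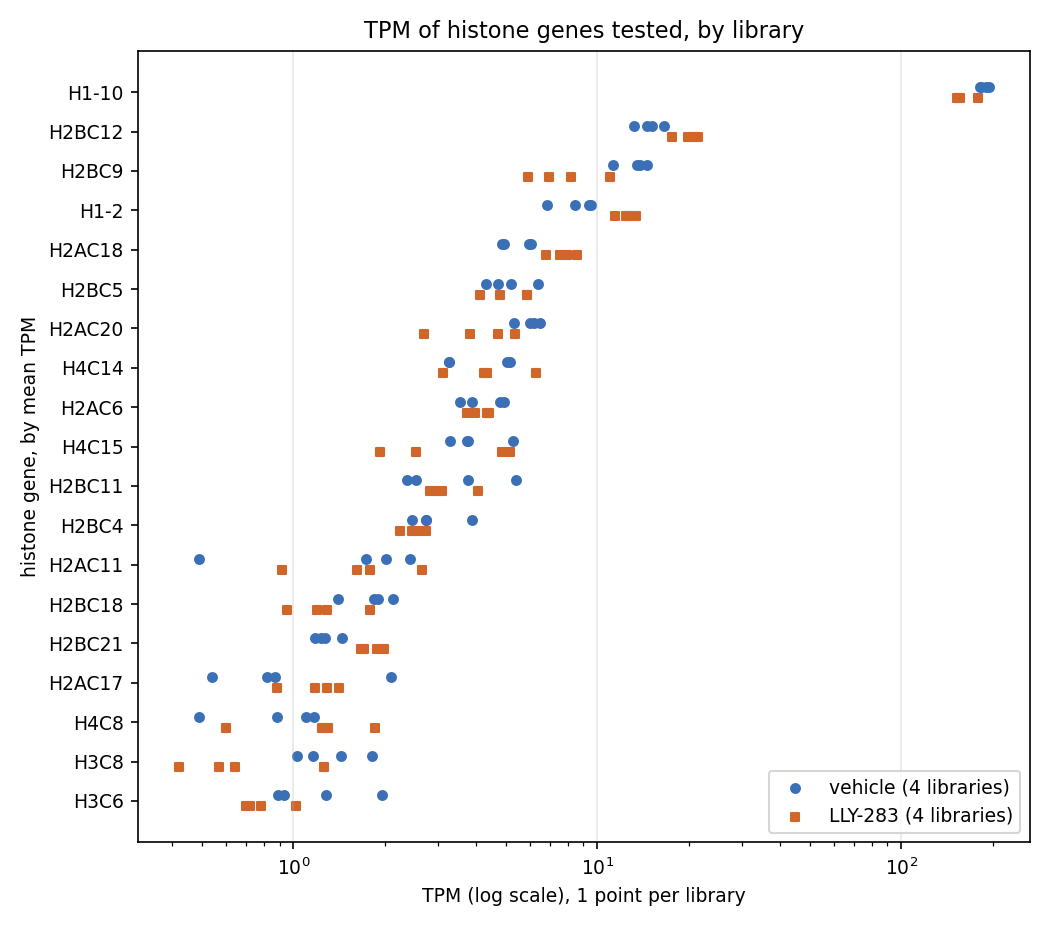
TPM on a log axis (x) of 19 of the 20 histone genes tested (y, sorted by mean), with 1 point per library, blue circles for 4 vehicle and orange squares for 4 LLY-283 libraries. H1-10 lies above 100 TPM, all genes with a stem-loop lie under 25 TPM, and the spread between replicates widens for the genes near 1 TPM.

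Of the H2A genes, H2AC18 rose and the other 4 tested were not called. H2AC18 (chromosome 1, 149842218 to 149842750, minus strand) was at 5.96, 6.07, 4.86 and 4.94 TPM with vehicle and at 7.56, 7.96, 6.80 and 8.57 TPM with LLY-283. The groups were separate, with means of 5.46 ± 0.646 and 7.72 ± 0.742 TPM (SD, n = 4) and a log2 fold change of 0.50 (SE 0.10, adjusted p = 0.00706, limma). Every 50-base window of H2AC18 also occurs in H2AC19, a copy nearby on the opposite strand that is listed at 0 in all libraries, so the value may stand for both genes. H2AC20 was at 6, 5.31, 6.48 and 6.21 TPM with vehicle and at 5.36, 4.73, 2.69 and 3.81 TPM with LLY-283, which overlap in 1 library. Its log2 fold change of -0.56 (SE 0.19, adjusted p = 0.0512, limma) was just outside the threshold. Of its 50-base windows, 23.4% also occur in H2AC18, so reads could be divided between them. H2AC20 was called lower under 3 of 19 alternatives by limma. These were leaving out LLY-283 replicate 1 (-0.70, adjusted p = 0.0231), the filter at 5 TPM (adjusted p = 0.0479) and robust eBayes (adjusted p = 0.0447). H2AC6, H2AC11 and H2AC17 were at -0.05, 0.17 and 0.27 on the log2 scale, with adjusted p from 0.621 to 0.821. Over 16 alternatives H2AC17 ran from 0.03 to 0.54 and was called in 0 of them. H2AC17 shares 67.8% of its 50-base windows with H3C12, which overlaps it on the same strand.

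None of the 2 H3 and 3 H4 genes tested was called by limma, and 1 of them, H3C8, had an unadjusted p under 0.05. H3C8, the H3 gene with the highest mean, was at 1.43, 1.03, 1.82 and 1.16 TPM with vehicle and at 0.64, 0.57, 1.26 and 0.42 TPM with LLY-283. LLY-283 replicate 3 lay within the vehicle range and the other 3 lay under it, and the log2 fold change was -0.89 (SE 0.33, 95% interval -1.64 to -0.15, adjusted p = 0.0744, limma). The mean of H3C8 was 1.36 TPM with vehicle and 0.72 TPM with LLY-283, so it passed the filter of 1 TPM only through the vehicle libraries. Its call without LLY-283 replicate 3 (-1.17, adjusted p = 0.0245, limma) is conditioned on that and decides nothing. H3C6, the other H3 gene tested, had a log2 fold change of -0.54 (adjusted p = 0.191, limma). It passed the filter in the same way, with means of 1.265 TPM with vehicle and 0.805 TPM with LLY-283.

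H4C14 (chromosome 1, 149832657 to 149839767, plus strand) was the H4 gene with the highest mean, at 3.25, 3.25, 5.03 and 5.17 TPM with vehicle and at 6.30, 4.25, 4.34 and 3.10 TPM with LLY-283. The groups overlapped throughout (log2 fold change 0.10, SE 0.23, adjusted p = 0.790, limma). H4C14 shares 97.5% of its 50-base windows with H4C15, and libraries high in one tended to be low in the other. The sum of the pair ran from 7.01 to 8.76 TPM with vehicle and from 6.87 to 9.11 TPM with LLY-283, with means of 8.18 ± 0.793 and 8.12 ± 0.927 TPM (SD, n = 4). The remaining H4 gene tested, H4C8, had a log2 fold change of 0.39 (adjusted p = 0.473, limma). Over 17 alternatives it ran from 0.15 to 0.77 and was called in 0 of them. H4C8 passed the filter only through the LLY-283 libraries, with means of 0.91 TPM with vehicle and 1.25 TPM with LLY-283.

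H2A and H2B genes often lie head to head and share the DNA between their start sites. In 12 pairs, the members start within 500 bases of each other on opposite strands, and in 3 of these both genes were tested. H2BC11 and H2AC11 changed by -0.06 and 0.17 on the log2 scale, and H2BC4 and H2AC6 by -0.21 and -0.05, none of them called. H2BC21 and H2AC20, whose starts are 236 bases apart, differed in sign, at 0.47 and -0.56. The ratio of H2BC21 to H2AC20 was 0.212, 0.271, 0.190 and 0.190 in the vehicle libraries and 0.351, 0.362, 0.621 and 0.520 in the LLY-283 libraries. The lowest LLY-283 ratio was above the highest vehicle ratio, with means of 0.216 ± 0.0384 and 0.463 ± 0.130 (SD, n = 4). This pair was picked after its values were seen, so the ratio is given without a test. The windows that H2AC20 shares with H2AC18 may also bear on the ratio.

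**Figure D3:**
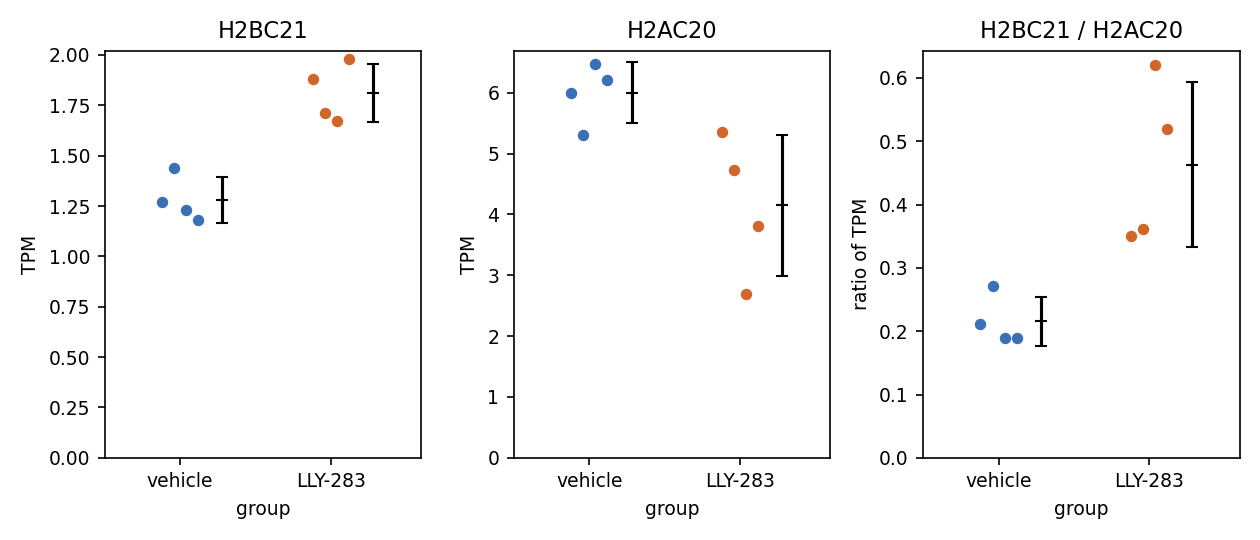
TPM of H2BC21 (left) and H2AC20 (middle) and the ratio between them (right) in 4 vehicle and 4 LLY-283 libraries, each point 1 library, with the mean and SD beside the points. H2BC21 is higher in all LLY-283 libraries, H2AC20 is lower in most of them, and the ratio moves from 0.216 to 0.463.

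The promoters of the members were read from RefSeq (GRCh38.p14), as 250 bases before and 50 bases after each start, and 64 of the 70 genes had 69 promoters between them. The motifs searched were 3, each on both strands, namely TATAAA for the TATA box, CCAAT, and the octamer ATTTGCAT that POU2F1 recognises. TATAAA was present in 65.2% of the members' promoters and 11.5% of all 35116 promoters, CCAAT in 84.1% and 34.6%, and the octamer in 39.1% and 1.77%. The octamer was found in 11 of 15 H2A and 15 of 19 H2B promoters, in 1 of 13 H3 promoters, and in 0 of 10 H1 and 0 of 12 H4 promoters. That 1 H3 promoter, an entry of H3C4, is the same stretch as the promoter of H2AC7 and is counted under both genes. Promoters of head-to-head H2A and H2B genes overlap, so the same octamer can be counted under both, as for H2AC20 and H2BC21. H2BC12 is counted more than once through overlapping entries. The counts and percentages are therefore of promoter entries and not of separate motif sites. CCAAT was found in every H2A, H2B and H3 promoter but in only 3 of 12 H4 promoters. The promoters of 4 genes are printed because their genes carry the comparison, with each motif match on either strand in capitals. No match of one motif overlapped a match of another in them, while the 2 matches of TATAAA on opposite strands run together at the start of the H2BC12 promoter.

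The promoter of H2AC20, chr1:149886668-149886967 on the plus strand, spans the whole interval to the start of H2BC21 and holds 2 TATAAA, 3 CCAAT and 1 octamer.

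H2AC20: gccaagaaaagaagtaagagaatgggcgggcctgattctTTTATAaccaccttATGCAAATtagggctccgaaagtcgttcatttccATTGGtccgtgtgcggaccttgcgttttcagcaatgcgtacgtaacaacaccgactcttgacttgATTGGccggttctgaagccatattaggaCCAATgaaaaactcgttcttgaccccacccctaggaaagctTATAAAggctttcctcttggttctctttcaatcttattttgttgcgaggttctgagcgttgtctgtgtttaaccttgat

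The promoter of H2BC9, chr6:26251364-26251663 on the plus strand, belongs to the gene that fell most among the calls and holds 3 CCAAT and 1 octamer but no TATAAA in this window.

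H2BC9: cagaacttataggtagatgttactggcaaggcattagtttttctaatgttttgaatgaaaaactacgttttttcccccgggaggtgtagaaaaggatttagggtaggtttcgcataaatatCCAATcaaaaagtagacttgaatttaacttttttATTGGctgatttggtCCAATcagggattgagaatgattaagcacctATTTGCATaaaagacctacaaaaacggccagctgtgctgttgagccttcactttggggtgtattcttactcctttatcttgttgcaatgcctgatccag

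The promoter of H2BC12, chr6:27146806-27147105 on the minus strand, belongs to the most abundant stem-loop gene, which rose, and holds 3 TATAAA, 6 CCAAT and 1 octamer.

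H2BC12: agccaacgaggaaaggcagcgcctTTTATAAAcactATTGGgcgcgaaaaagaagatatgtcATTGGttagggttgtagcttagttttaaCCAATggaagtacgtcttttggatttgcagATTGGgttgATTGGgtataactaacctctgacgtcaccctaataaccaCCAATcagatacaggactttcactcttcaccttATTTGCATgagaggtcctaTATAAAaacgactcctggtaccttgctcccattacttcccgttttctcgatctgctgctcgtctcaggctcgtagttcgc

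The promoter of H1-2, chr6:26056421-26056720 on the minus strand, belongs to the gene with the largest called increase and holds 1 CCAAT and neither of the other 2 motifs.

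H1-2: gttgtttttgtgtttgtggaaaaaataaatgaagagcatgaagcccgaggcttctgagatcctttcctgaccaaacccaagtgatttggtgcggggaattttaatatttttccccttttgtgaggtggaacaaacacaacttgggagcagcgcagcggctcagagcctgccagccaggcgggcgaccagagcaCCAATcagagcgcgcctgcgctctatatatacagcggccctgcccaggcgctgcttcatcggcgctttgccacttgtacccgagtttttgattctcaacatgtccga

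H2BC9 and H2BC12, which moved in opposite directions, both hold the octamer and CCAAT.

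The level and the calls were then set against position and annotated transcript form, with few genes in each subset and with 8.61% of all genes higher and 17.6% lower. Of the 55 stem-loop genes on chromosome 6, between 25723397 and 27893891, 12 were tested, with 2 higher, 1 lower and a median log2 fold change of -0.02. Of the 11 on chromosome 1, between 149782689 and 149887965, 6 were tested, with 2 higher, 0 lower and a median of -0.07. In 14 of the 66 genes the annotation holds a transcript that runs more than 100 bases past the stem-loop, the form in which histone genes are known to give polyadenylated mRNA. These 14 had a median level of 1.55 TPM and 10 of them were tested, whereas the 52 whose transcripts stop at the stem-loop had a median of 0.404 TPM and 8 of them were tested. Among the 10, 1 was higher (H2BC21) and 0 lower. Among the 8, 3 were higher (H1-2, H2AC18 and H2BC12) and 1 was lower (H2BC9), so that 4 of the 5 stem-loop genes called have no annotated transcript of the longer form.

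Levels were also summed over the members of a class. The 6 H1 genes with a stem-loop gave 10.6 ± 2.45 TPM with vehicle and 13.5 ± 0.576 TPM with LLY-283 (SD, n = 4). The H2A sum was 22.3 ± 4.06 and 21.8 ± 0.637 TPM and the H2B sum 47.4 ± 5.22 and 44.7 ± 2.86 TPM. H3 gave 8.50 ± 2.08 TPM with vehicle and 5.35 ± 1.66 TPM with LLY-283, the largest of these differences on the log2 scale (-0.67), and H4 gave 13.7 ± 4.56 and 11.5 ± 1.62 TPM. Every one of these 5 sums overlapped between the groups. Together the 66 stem-loop genes summed to 126.38, 92.09, 88.24 and 103.08 TPM with vehicle and to 96.70, 94.07, 95.36 and 101.02 TPM with LLY-283, and vehicle replicate 1 was the highest library by a wide margin. Without it the H2A, H4 and stem-loop sums turned from lower to level or higher with LLY-283, at 0.09, 0.00 and 0.03 on the log2 scale. The H2B sum moved from -0.08 to -0.02 on that scale without the same library.

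The 50 members under 1 TPM were not tested. H2BC17, the highest of them, had a mean of 0.979 TPM, and H3C6, the lowest member tested, had 1.03 TPM. Of the 50, 12 were at 0 in all libraries and 38 were above 0 in at least 1. The mean was lower with LLY-283 for 35 of the 38 (92.1%) and higher for H2AC15, H2BC7 and H3C13, while 57.5% of the 16994 genes with a mean above 0 and under 1 TPM were lower. The sum of the 50 was 36.26, 15.19, 13.75 and 18.14 TPM with vehicle and 11.27, 12.01, 14.89 and 12.01 TPM with LLY-283. Vehicle replicate 1 stood far above the other 7 libraries, and LLY-283 replicate 3 was above vehicle replicate 3. The log2 ratio of the group means was -0.73, and -0.32 without vehicle replicate 1.

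Vehicle replicate 1 held the highest value for 19 of the 38 (50%), against 16.4% of all genes in this range. Without that library 29 of the 38 (76.3%) were lower with LLY-283, against 55.7% of all genes in the range. H4C5 was at 2.79, 0.47, 0.33 and 0 TPM with vehicle and at 0.44, 0.78, 0.63 and 1.00 TPM with LLY-283, so that without replicate 1 the vehicle values were the lower ones on average. H4C1, by contrast, was at 0.51, 0.65, 0.52 and 0.60 TPM with vehicle and at 0.31, 0, 0.33 and 0.15 TPM with LLY-283, with no overlap. With the filter lowered to a mean of 0.1 TPM, 34 of these members entered the limma fit, 29 with a lower and 5 with a higher fitted value and a median log2 fold change of -0.53. None of the 34 was called by limma, whereas 2481 of all 21178 genes in that fit were called lower. Of the 34, 4 (H4C1, H2BC3, H3C12 and H2BC17, all lower) had an unadjusted p under 0.05, with adjusted p from 0.0654 to 0.0946.

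The same library had the highest sum of 26 RNAs that carry no poly(A) tail, such as RN7SK, RN7SL1 and small nuclear RNAs. The sum was 1011.4, 236.95, 254.50 and 377.43 TPM with vehicle and 175.05, 208.55, 393.66 and 197.94 TPM with LLY-283. Vehicle replicate 1 was again far above the rest, and LLY-283 replicate 3 was the highest of its group in both sums. Of these 26 RNAs, 15 were tested, and 0 rose and 1 fell, where 8.61% of all genes tested rose and 17.6% fell. The RNA that fell, SNORD3A (log2 fold change -0.96, adjusted p = 0.0449, limma), was called under 4 of 17 alternatives. Its call was lost without vehicle replicate 1 (-0.68, adjusted p = 0.0801, limma). The part of the 26 RNAs in the levels of the low histone genes was not tested. With vehicle replicate 1 and LLY-283 replicate 3 both left out, a choice made after seeing the data, H1-2, H2AC18 and H2BC12 were still called higher, while H2BC9 (-0.69, adjusted p = 0.0641, limma) and H1-10 (-0.21, adjusted p = 0.0531, limma) were not called.

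**Figure D4:**
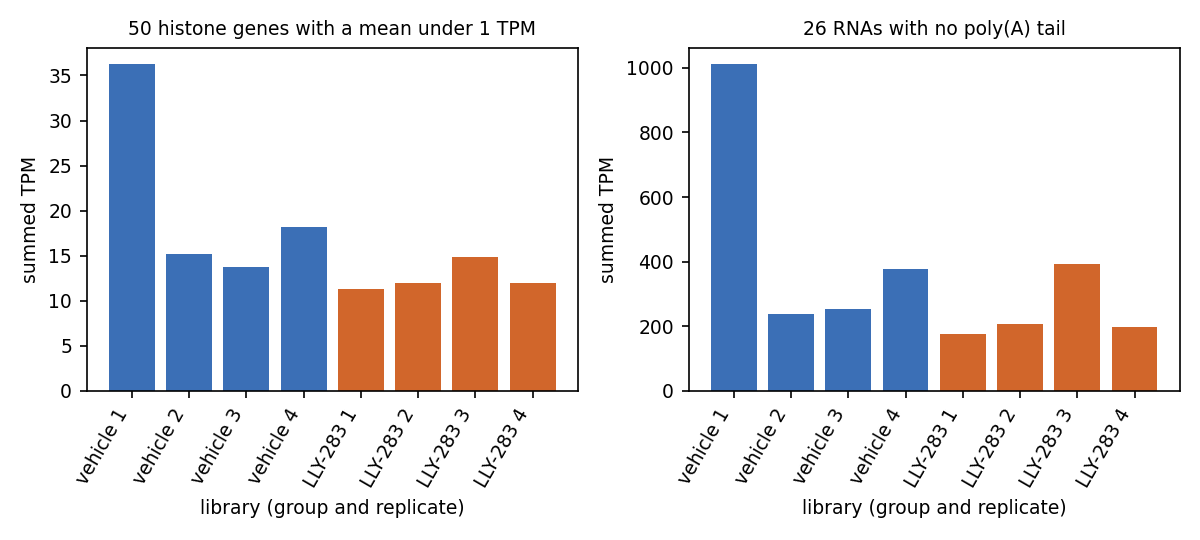
Summed TPM per library (y axes, from 0) of the 50 histone genes with a mean under 1 TPM (left) and of 26 RNAs with no poly(A) tail (right), for 4 vehicle (blue) and 4 LLY-283 (orange) libraries on the x axis. Vehicle replicate 1 is highest in both panels, at 36.26 and 1011.4 TPM, and LLY-283 replicate 3 is the highest LLY-283 library in both, at 14.89 and 393.66 TPM.

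The genes that make and process histone mRNA were described from lists by role, with limma calls from the same fit, to be read against the 8.61% of all genes that rose and the 17.6% that fell. Of 8 genes for histone transcription, 0 rose and 2 fell, a share near that of all genes. NPAT, the coactivator of histone genes, was at 10.3 ± 1.45 and 9.34 ± 0.367 TPM (SD, n = 4) and was not called (adjusted p = 0.321), whereas CCNE2, a cyclin that with CDK2 phosphorylates NPAT, fell by 0.49 on the log2 scale, from 13.7 ± 1.08 to 9.73 ± 0.408 TPM (adjusted p = 0.000842). CDK2 fell as well (-0.18, adjusted p = 0.0154).

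None of 11 genes for 3′-end processing was called by limma, and 1, CSTF2, had an unadjusted p under 0.05. SLBP was at 81.3 ± 3.71 and 76.5 ± 3.52 TPM (log2 fold change -0.09, adjusted p = 0.178, limma) and was called lower without LLY-283 replicate 4 (-0.12, adjusted p = 0.0475), and ZNF473, a zinc finger protein bound to the U7 snRNP, differed by 0.06 (adjusted p = 0.654). Of 7 protein subunits of the U7 snRNP, SNRPE (0.15, adjusted p = 0.00570) and SNRPF (0.13, adjusted p = 0.0162) rose. Both are Sm proteins that also belong to the spliceosomal snRNPs, and LSM10 and LSM11, which are particular to U7, were not called (-0.09 and -0.01, adjusted p = 0.0614 and 0.952). LSM10 was called lower under 3 alternatives, after quantile normalization (adjusted p = 0.0455), without mitochondrial and tail-less RNAs (0.0394) and without LLY-283 replicate 4 (0.0464). Of 8 genes for histone mRNA decay, 3 rose and 1 fell by limma. ERI1, an exonuclease that trims the stem-loop end, rose from 28.9 ± 0.580 to 33.4 ± 0.815 TPM (0.21, adjusted p = 0.00239), TUT7 and UPF1 rose by 0.22 and 0.12 on the log2 scale, and the decapping enzyme gene DCP2 fell by 0.21 (adjusted p = 0.0450). The call of DCP2 held under 5 of 19 alternatives only, with a log2 fold change of -0.13 (adjusted p = 0.133, limma) after quantile normalization.

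Of 15 genes for ordinary polyadenylation, 1 rose, CSTF1 (0.27, adjusted p = 0.00188, limma), and 4 fell, led by CSTF3 (-0.26, adjusted p = 0.000721), its partner in the cleavage stimulation factor. Among 20 genes of S phase and DNA synthesis, 1 rose and 9 fell, where 17.6% of all genes fell and 8.61% rose. RRM2, which with RRM1 forms ribonucleotide reductase, was at 182 ± 2.27 TPM with vehicle and 116 ± 5.80 TPM with LLY-283 and fell by 0.65 on the log2 scale (adjusted p = 1.68e-05, limma), and MCM3, a subunit of the replicative helicase, rose (0.23, adjusted p = 0.00145). The median log2 fold change of the 20 was -0.12, against -0.05 for all genes tested. In these bulk libraries fewer cells in S phase and less RNA per cell cannot be told apart.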

How the data were processed

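RNA of 8 U251 libraries was captured on oligo-dT beads. The authors trimmed reads with Cutadapt 1.18, mapped them to GRCh38 with STAR and estimated expression with RSEM on GENCODE. The submitters' processing notes give STAR 2.7.0f and RSEM 1.3.1, while the methods name later versions. The values the authors deposited are TPM per gene and library, which keep no depth and are relative to the other RNAs of the library. Whether strand was used is not given in the sources used here.

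From these, log2(TPM + 0.1) was computed for the 14478 of 61906 genes that averaged 1 TPM or more, and the 4 LLY-283 libraries were tested against the 4 vehicle libraries in limma 3.58.1 (lmFit, eBayes with a mean-variance trend, two-sided) in R 4.3.3, with Benjamini-Hochberg adjustment over all genes tested. The pseudocount of 0.1 shrinks the log2 differences between single libraries for low genes. The fitted value is a difference of mean logs, so it can exceed the ratio of mean TPM or differ from it in direction. For H4C5 the ratio was 0.79, while the fitted log2 fold change with the filter at 0.1 TPM was 0.61. The fit was tested on simulated data. Alternatives were pseudocounts of 0.5 and 1 TPM, filters at 0.1 and 5 TPM or none, quantile and median-of-ratios scaling, removal of mitochondrial and tail-less RNAs, robust eBayes, a replicate block and leaving out each library.

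Positions, stem-loops and 50-base windows shared between genes were taken from GENCODE release 44 on GRCh38, in which all 70 members were found. The members and gene lists were chosen with earlier results of these data known. Members called above 1.5-fold and the highest member of each class are given in full, and in each list the called gene with the smallest p in each direction is named. Of the members, 1 that was tested and counted is not reported here by itself.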

Additional observations from a re-analysis of the deposited data

Results flagged for a closer look

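In a group of 4 libraries, a highest or lowest value far from the other 3 by Dixon's criterion was found in 20 of the 136 groups examined (68 quantities in each treatment). The criterion marks about 1 in 20 groups of independent, normally spread values. Here the tail-less RNAs were examined together with their own sum, and some groups were at 0 except in 1 library. The count therefore cannot be set against that rate. The 68 quantities did not cover all histone genes of the rule. H2AC12, for example, was not among them. It was at 1.23 TPM in vehicle replicate 1 against 0.14 to 0.26 TPM in the rest of its group. In LLY-283 replicate 3 it was at 0.92 TPM against 0.24 to 0.26 TPM. Among the histone genes of the rule that were examined, such a value was found once. This was H1-10 in LLY-283 replicate 4, at 179.48 TPM against 152.55 to 156.74 TPM in the other 3.

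The same library was high for 2 variant genes, H3-3B at 1222.48 TPM against 1070.96 to 1074.72 TPM and MACROH2A1 at 189.68 TPM against 182.21 to 183.47 TPM. Vehicle replicate 4 was low for MCM3, at 99.4 TPM against 105.91 to 106.84 TPM.

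The other 16 concerned RNAs with no poly(A) tail. In vehicle replicate 1, RN7SK was at 100.6 TPM against 21.29 to 33.28 TPM, RN7SL1 at 398.87 TPM, RN7SL2 at 272.64 TPM, RNU1-1 at 61.31 TPM and SNORA73A at 5.7 TPM. In LLY-283 replicate 3, their sum was 393.66 TPM against 175.05 to 208.55 TPM, with RN7SK at 34.95 TPM, RMRP at 23.56 TPM, RNU1-1 at 19.83 TPM, RPPH1 at 9.9 TPM, RNU2-2P at 5.12 TPM, SNORA73A at 4.41 TPM and SNORD3A at 3.2 TPM. A single library of its own group was above 0 for RNU4-1 (10.83 TPM, vehicle replicate 4), RNU6ATAC (13.94 TPM, vehicle replicate 4) and RNU5B-1 (10.04 TPM, LLY-283 replicate 4).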

How the results depend on the processing

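H1-2, H2AC18 and H2BC12 were called higher under all 19 alternatives, with log2 fold changes from 0.44 to 0.65, 0.44 to 0.64 and 0.37 to 0.49. H2BC9 was called lower under 18 of 19 (-0.92 to -0.63). The 4 members higher and 3 lower became 3 and 0 without vehicle replicate 1 and LLY-283 replicate 3, and with a change above 1.5-fold 2 and 0, which uses fewer libraries. Above 1.5-fold, 3 members were higher after quantile normalization and 1 after median-of-ratios scaling, and with libraries left out the counts ran from 0 to 2 in each direction. The median of the members was -0.42 with the filter at 0.1 TPM or none, which brings in the low members (all genes -0.07 and -0.06), and 0.12 after quantile normalization (all genes 0.01). Over all genes, 1871 were higher after quantile normalization, 1927 after median-of-ratios scaling and 650 without the 2 libraries, where 1666 were lower. Without LLY-283 replicate 4, 1502 were higher and 2689 lower, and with any other library left out 901 to 1022 were higher and 1898 to 2160 lower. Above 1.5-fold, 25 were higher and 202 lower with the filter at 5 TPM, 126 higher and 260 lower after quantile normalization, and 313 lower with a pseudocount of 1 TPM. The cause of the other shifts was not tested.

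Signs turned for 8 genes, none of them called. After quantile normalization H2AC6 and H2BC11 were at 0.12, LSM11 at 0.16 and PRMT5 at -0.0044. Without mitochondrial genes and tail-less RNAs H2BC5 was at -0.0013 and PRMT5 at -0.0037, and LSM11 was at 0.036 after median-of-ratios scaling. Without vehicle replicate 1 and LLY-283 replicate 3, H2BC11 was at 0.06, H4C14 at -0.0079, H4C15 at 0.031 and LSM11 at 0.018. With libraries left out, the values ran from -0.30 to 0.42 for H2AC11, -0.14 to 0.021 for H2AC6, -0.21 to 0.17 for H2BC11, -0.071 to 0.14 for H2BC5, -0.078 to 0.26 for H4C14, -0.44 to 0.031 for H4C15, -0.043 to 0.031 for LSM11 and -0.030 to 0.035 for PRMT5.

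The titles number the replicates 1 to 4 in both groups, but same-numbered libraries did not deviate together (correlations -0.04, 0.03, -0.0016 and -0.09), so the numbers were not taken as pairs. With a replicate block 3 members were higher and 3 lower, 1095 and 2201 genes in all were called, and the calls of H2BC21 (adjusted p = 0.104), DCP2 (0.0905) and SNORD3A (0.0526) were lost and that of H2AX gained (0.0447) by limma. TPM values carry no depth, so what depth limits could not be assessed.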

Other observations

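Of 11 histone variant genes outside the rule, 10 were tested, and 1 rose and 2 fell by limma, shares near the 8.61% higher and 17.6% lower of all genes tested. MACROH2A1, which encodes a large H2A variant, rose from 160 ± 2.72 to 185 ± 3.40 TPM (SD, n = 4; log2 fold change 0.20, adjusted p = 0.000613). CENPA, the H3 variant of centromeres, fell from 49.3 ± 3.54 to 41.6 ± 0.886 TPM (-0.24, adjusted p = 0.00721), and H2AZ1 fell from 771 ± 18.5 to 707 ± 23.3 TPM (-0.12, adjusted p = 0.0160), the latter not called after median-of-ratios scaling (-0.08, adjusted p = 0.157) or without vehicle replicate 4 (adjusted p = 0.0522). H2AX, whose protein is phosphorylated at DNA breaks, was at 192 ± 5.13 and 173 ± 14.5 TPM and was not called (-0.16, adjusted p = 0.0593), but was called under 5 of 19 alternatives, among them without LLY-283 replicate 4 (-0.21, adjusted p = 0.00202). The H3.3 genes H3-3A and H3-3B were not called (0.05 and -0.09, adjusted p = 0.313 and 0.165), but H3-3B was called lower without LLY-283 replicate 4 (-0.13, adjusted p = 0.000283), after quantile normalization (adjusted p = 0.00194) and without mitochondrial and tail-less RNAs (adjusted p = 0.0417).

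Of 21 genes for histone chaperones and import, 2 rose and 3 fell by limma, again near the shares of all genes. ASF1B, a chaperone of H3 and H4, fell by 0.40 on the log2 scale, from 83.2 ± 1.69 to 63.2 ± 3.45 TPM (adjusted p = 0.000242), and CHAF1B, a subunit of chromatin assembly factor 1, fell by 0.23 on the log2 scale (adjusted p = 0.00461). RBBP4, a histone-binding protein of several chromatin complexes, rose from 231 ± 8.55 to 259 ± 4.99 TPM (0.17, adjusted p = 0.00481). Of the 7 glial or glioblastoma markers tested, 1 rose and 3 fell, where 8.61% of all genes tested rose and 17.6% fell. CD44 rose (0.11, adjusted p = 0.0168, limma) and was called under 14 of 19 alternatives. It was not called without vehicle replicate 1 or 4 (adjusted p = 0.0509 and 0.0528, limma). GFAP, NES and SOX2 fell, SOX2 by 0.27 on the log2 scale (adjusted p = 0.000349, limma).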
